A study of Homo sapiens with 30 samples.

Results

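The 9 genes described here regulate entry into the cell cycle and the p53 and RB pathways: the inhibitors CDKN1A, CDKN1B, CDKN2A and CDKN2B, the p53 regulator MDM2, the pocket protein gene RB1, and the cyclin genes CCND1, CCND2 and CCNE2. They were chosen by name, as the 9 rows of a Cuffdiff expression table that carry these symbols among 26255 genes, and all 9 reached at least 1 FPKM in every line. FPKM is the number of fragments per kilobase of transcript, scaled to the mapped fragments of the library, so levels can be compared between genes. RNA-seq covered 4 derivatives of RWPE1, a non-tumorigenic human prostate epithelial cell line. The vector line carried empty retroviral vectors, the ERG line expressed the ETS transcription factor ERG, the mAKT line expressed a myristoylated and thereby active AKT, and the ERG/mAKT line expressed the pair. All lines were drug-selected populations of the same parental cells, grown in serum-free keratinocyte medium with epidermal growth factor and bovine pituitary extract. Peak lists of 1 library each covered ERG in RWPE1 with ERG and mAKT and in VCaP, ERK2 in the vector and ERG lines, the repressive mark H3K27me3 in the vector, ERG and phosphomimetic ERG S96E lines, and open chromatin by ATAC-seq in the ERG, mAKT and ERG/mAKT lines. VCaP is a prostate cancer line that expresses ERG from a TMPRSS2 rearrangement.

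In the G1 phase, D-type cyclins activate CDK4 and CDK6, which phosphorylate RB and free E2F factors to transcribe the genes of S phase, cyclin E among them. INK4 inhibitors, encoded by CDKN2A and CDKN2B, block CDK4 and CDK6, while the CIP/KIP inhibitors p21 (CDKN1A) and p27 (CDKN1B) act chiefly on CDK2 complexes. p53 activates CDKN1A and also MDM2, the ubiquitin ligase that degrades p53. RWPE1 cells were immortalised with human papillomavirus, whose E6 protein targets p53 for degradation and whose E7 protein binds RB, so in every RWPE1 line, the vector control included, p53 and RB are targets of viral proteins. High CDKN2A expression is a known companion of RB inactivation.

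For each line the table holds 1 value per gene, which the authors pooled over 3 libraries. Values of single libraries were not analysed here and the authors' own comparisons were not used, so no spread or test stands beside these values, and differences are described by their size. A ratio of at least 1.5-fold is called higher or lower, and the share of all expressed genes past the same limit is given as the background. Expressed means at least 1 FPKM in any line, which held for 12667 genes. The number of mapped fragments behind the FPKM is unknown.

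The transgenes followed the labels. ERG, listed at 0.264 FPKM in the vector line and 0.435 in the mAKT line, reached 358 in the ERG line and 328 in the ERG/mAKT line. AKT1 stood at 58.7 FPKM in the vector line, 64.2 in the ERG line, 156 in the mAKT line and 281 in the ERG/mAKT line, so the ERG/mAKT line had 1.80 times as much AKT1 RNA as the mAKT line. Of 8 prostate epithelial markers, all 8 were expressed. Of 10 markers of other cell types, only COL1A1, at 1.78 to 2.18 FPKM, and CD68, at 24.3 to 28.9 FPKM, reached 1 FPKM, and COL3A1, PTPRC and DES were at or near 0 in every line. In bulk RNA, fewer cells of a kind and less RNA per cell cannot be told apart.

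**Figure D1:**
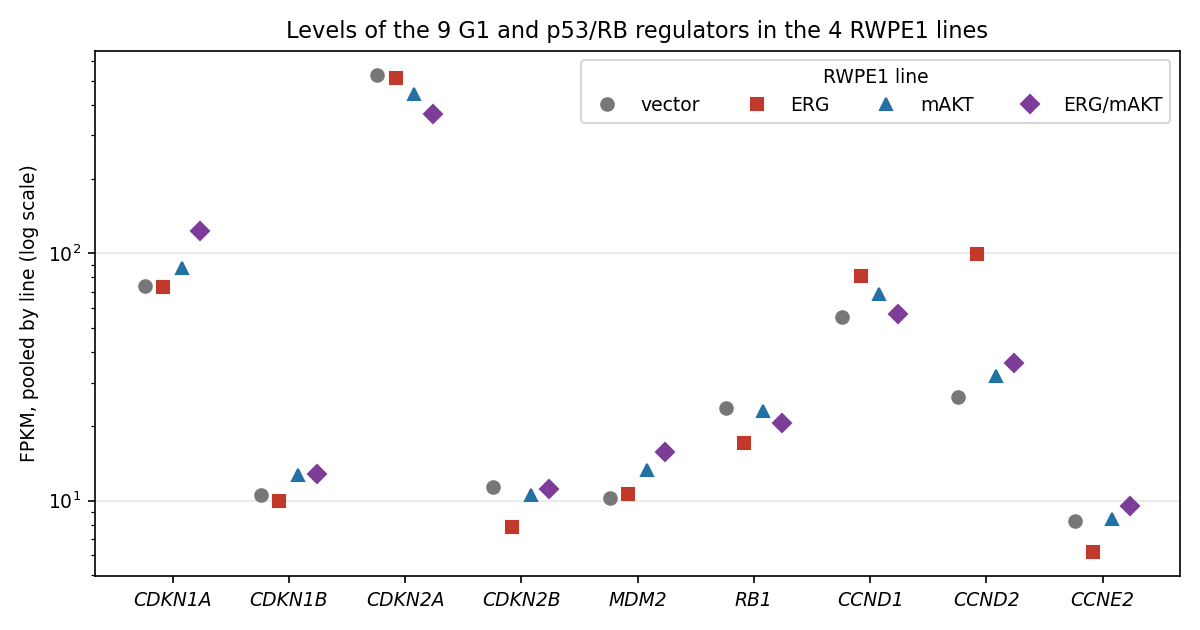
FPKM of the 9 genes (log scale) in the vector, ERG, mAKT and ERG/mAKT lines, 1 pooled value per line. CDKN2A lies above every other member in all 4 lines, and CCND2 in the ERG line stands apart from its level in the other lines.

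CDKN2A was the most abundant member in every line. This gene encodes the CDK inhibitor p16INK4a and, from another start and reading frame, p14ARF, which inhibits MDM2. Its level was 528 FPKM in the vector line, 514 in the ERG line, 439 in the mAKT line and 365 in the ERG/mAKT line. These levels exceeded those of 98.3%, 97.8%, 97.8% and 97.6% of expressed genes, respectively. CDKN2A was thus lower in each line with mAKT than in either line without it, but the largest difference, 1.45-fold between the vector and ERG/mAKT lines (log2 ratio −0.53), stayed under the limit.

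CDKN2A spans chromosome 9, 21967751 to 21995300 on the minus strand in GRCh37, the build that the peak lists use under the name hg19. The p16INK4a and p14ARF transcripts share exons, so the gene-level FPKM does not separate them, and the strand setting of the counting is not given in the sources used here while CDKN2B-AS1 overlaps the gene on the opposite strand. ATAC peaks lay over both starts in the ERG, mAKT and ERG/mAKT lists. At the p16INK4a start the enrichment was 9.22-fold, 7.39-fold and 10.4-fold in the ERG, mAKT and ERG/mAKT lists, and at the p14ARF start it was 4.45-fold, 3.81-fold and 4.47-fold. The higher enrichment of the 2 in all 3 lists was thus at the p16INK4a start. The p14ARF peaks were wider, at 1852, 1827 and 1427 bp against 1078, 1005 and 655 bp, so the starts are not ranked by openness here. Openness is also not a measure of transcript level. The 250 bases before each start (RefSeq, GRCh38.p14, minus strand) are shown because these are the start regions whose products the FPKM merges, with CG pairs in capitals.
CDKN2A, p14ARF start, chr9:21995325-21995574: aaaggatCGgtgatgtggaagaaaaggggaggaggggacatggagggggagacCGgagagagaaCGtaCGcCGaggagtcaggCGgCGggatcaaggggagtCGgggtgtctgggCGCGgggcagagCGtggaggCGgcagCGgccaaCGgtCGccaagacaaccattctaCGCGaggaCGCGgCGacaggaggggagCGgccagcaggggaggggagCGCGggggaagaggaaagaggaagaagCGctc
CDKN2A, p16INK4a start, chr9:21974858-21975107: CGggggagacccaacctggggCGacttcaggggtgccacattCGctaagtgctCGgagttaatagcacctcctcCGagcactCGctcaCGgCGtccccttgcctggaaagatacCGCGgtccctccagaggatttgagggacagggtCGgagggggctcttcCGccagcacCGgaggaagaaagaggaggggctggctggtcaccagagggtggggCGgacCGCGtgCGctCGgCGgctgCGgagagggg

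These windows held 24 and 20 CG pairs, against a median of 11 over 34788 promoter windows of the same length, of which 23.7% held at least 24 and 32.5% at least 20. Neither window held the E2F words TTTGGCGC, TTTCGCGC, TTTCCCGC and TTTGCCGC, the ETS word CCGGAAGT, the AP-1 words TGACTCA and TGAGTCA, the FOXO word GTAAACA, on either strand, or a p53 element.

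CDKN2B, the neighbouring gene for the INK4 inhibitor p15, was expressed at a much lower level. It measured 11.4 FPKM in the vector line, 7.83 in the ERG line, 10.6 in the mAKT line and 11.1 in the ERG/mAKT line. Only the ERG line stood apart, 1.45-fold below the vector line (log2 ratio −0.54), again short of the limit. CDKN2A therefore exceeded CDKN2B by 46.5-fold, 65.6-fold, 41.6-fold and 32.8-fold in the vector, ERG, mAKT and ERG/mAKT lines. CDKN2B lies inside the span of the antisense gene CDKN2B-AS1, which was nearly level at 2.49 to 2.61 FPKM, and reads of the pair may not be separable. MTAP, which lies on the other side of CDKN2A from CDKN2B, measured 32.9, 23.1, 29.1 and 26.0 FPKM in the same order of lines.

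CDKN1A, which encodes p21, had the largest ratio of ERG/mAKT over vector among the members, though its ratio over the mAKT line stayed under the limit. It measured 73.5 FPKM in the vector line, 73.2 in the ERG line, 87.2 in the mAKT line and 123 in the ERG/mAKT line. The vector and ERG lines were thus level, the mAKT line was slightly above them and the ERG/mAKT line was the highest of the 4. CDKN1A was 1.67-fold higher in the ERG/mAKT line than in the vector line (log2 ratio 0.74), 1.68-fold higher than in the ERG line (0.75) and 1.41-fold above the mAKT line (0.49). CDKN1B, the gene of p27, had the narrowest range of the members, with 10.5 FPKM in the vector line, 9.98 in the ERG line, 12.7 in the mAKT line and 12.8 in the ERG/mAKT line. Both lines with mAKT stood above both lines without it, by at most 1.28-fold.

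MDM2 followed the same order of lines as CDKN1A apart from the vector and ERG lines, which were close for both. MDM2 measured 10.3 FPKM in the vector line, 10.6 in the ERG line, 13.3 in the mAKT line and 15.8 in the ERG/mAKT line. The ERG/mAKT line was 1.53-fold higher than the vector line (log2 ratio 0.62) and 1.49-fold above the ERG line (0.57). The first ratio passed the limit narrowly and was 0.57, under it, with a pseudocount of 1 FPKM. MDM4, the p53-binding relative of MDM2, was low throughout, at 2.45 to 3.58 FPKM.

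MDM2 has starts before its first exon and, within the first intron, a p53-responsive start region. Because CDKN1A and MDM2 were the members called higher in the ERG/mAKT line and both are classical p53 targets, the 250 bases before 1 of the 2 RefSeq starts in that region (7 bases apart, GRCh38.p14, plus strand) are shown, with the p53 element and the AP-1 word TGACTCA in capitals, the AP-1 word first.
MDM2, intronic start, chr12:68808767-68809016: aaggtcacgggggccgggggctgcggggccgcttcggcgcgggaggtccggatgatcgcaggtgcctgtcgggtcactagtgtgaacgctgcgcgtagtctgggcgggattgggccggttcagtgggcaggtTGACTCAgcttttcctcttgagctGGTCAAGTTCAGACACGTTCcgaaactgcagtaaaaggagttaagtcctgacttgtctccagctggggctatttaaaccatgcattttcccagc

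The p53 element, searched with at most 3 mismatches in 20 letters, began 94 bases before the start and had 2 mismatches. Such an element occurred in 0.917% of the 34788 promoter windows, and an AP-1 word in 4.21%. The windows before the other MDM2 starts held an E2F word on the minus strand, present in 2.78% of windows. The CDKN1A window held none of the E2F, CCGGAAGT, AP-1 and FOXO words and no p53 element, and the CDKN1B window held an element with 3 mismatches. A match is a description of letters and not a bound site. Only the 250 bases before a start were searched, so a window without an element does not show that the gene lacks one elsewhere. RefSeq windows were at hand for CDKN1A, CDKN1B, CDKN2A, CDKN2B, MDM2 and RB1.

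CCND2, which encodes cyclin D2, showed the widest range of the 9 genes. It measured 26.3 FPKM in the vector line, 99.3 in the ERG line, 32.0 in the mAKT line and 36.1 in the ERG/mAKT line. The ERG line was far above the other 3, which lay within 1.37-fold of each other. CCND2 was 3.77-fold higher in the ERG line than in the vector line (log2 ratio 1.92), a ratio reached by 1.13% of 12481 genes, and 2.75-fold lower in the ERG/mAKT line than in the ERG line (log2 ratio −1.46).

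CCND1, which encodes cyclin D1, also peaked in the ERG line but moved less. It measured 55.3 FPKM in the vector line, 80.9 in the ERG line, 68.7 in the mAKT line and 56.7 in the ERG/mAKT line, and its 1.46-fold ERG over vector ratio (log2 0.55) was short of the limit. CCND3, the third D-type cyclin gene, measured 51.8, 63.9, 56.7 and 48.3 FPKM in the same order. The D-type cyclin genes together amounted to 133 FPKM in the vector line, 244 in the ERG line, 157 in the mAKT line and 141 in the ERG/mAKT line. CCND2 made up 19.7% of that sum in the vector line and 40.7% in the ERG line, where it was the most abundant D-type cyclin RNA, whereas CCND1 was the most abundant in the other lines. In the mAKT and ERG/mAKT lines the share of CCND2 was 20.4% and 25.6%.

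Basal and luminal markers of the list were also different in the ERG line. KRT5 was 3126 FPKM in the vector line, 1170 in the ERG line, 3642 in the mAKT line and 3519 in the ERG/mAKT line, and TP63 was 36.3, 21.3, 39.2 and 38.0 FPKM. KRT18 was 817, 1843, 987 and 958 FPKM in the same order. Like CCND2, these genes were set apart in the ERG line and nearer the vector level in the ERG/mAKT line, whereas KRT14 was low in both ERG-expressing lines (700 and 1185 against 2936 FPKM in the vector line). The basal keratin KRT15 went the other way from KRT5 and was highest in the ERG/mAKT line, with 33.3, 80.3, 53.8 and 280 FPKM in the vector, ERG, mAKT and ERG/mAKT lines. Of the 8 epithelial markers, 3 were called higher and 3 lower in the ERG line than in the vector line, beside 9.41% and 5.11% of all expressed genes. The part of such a shift in the level of CCND2 was not tested.

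CCNE2, which encodes cyclin E2 and is transcribed by E2F, was lowest in the ERG line. It measured 8.30 FPKM in the vector line, 6.18 in the ERG line, 8.46 in the mAKT line and 9.52 in the ERG/mAKT line. The ERG/mAKT line was 1.54-fold higher than the ERG line (log2 ratio 0.62), a call that a pseudocount of 1 FPKM ended (0.55). Its paralogue CCNE1 was lower still, at 2.64 to 3.48 FPKM, with the 2 lowest values in the ERG-expressing lines.

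RB1 was expressed in every line, and no ratio between lines passed the limit. It measured 23.7 FPKM in the vector line, 17.1 in the ERG line, 23.0 in the mAKT line and 20.6 in the ERG/mAKT line. The ERG line was the lowest, 1.39-fold below the vector line (log2 ratio −0.47), and 8.02% of 12481 genes had a ratio as low or lower. The other pocket protein genes were also lower in the ERG line than in the vector line, RBL1 with 9.26 against 13.6 FPKM and RBL2 with 7.33 against 9.35 FPKM, and none of the 3 passed the limit. In the vector line CDKN2A RNA exceeded RB1 RNA by 22.3-fold, and in the ERG/mAKT line by 17.7-fold.

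**Figure D2:**
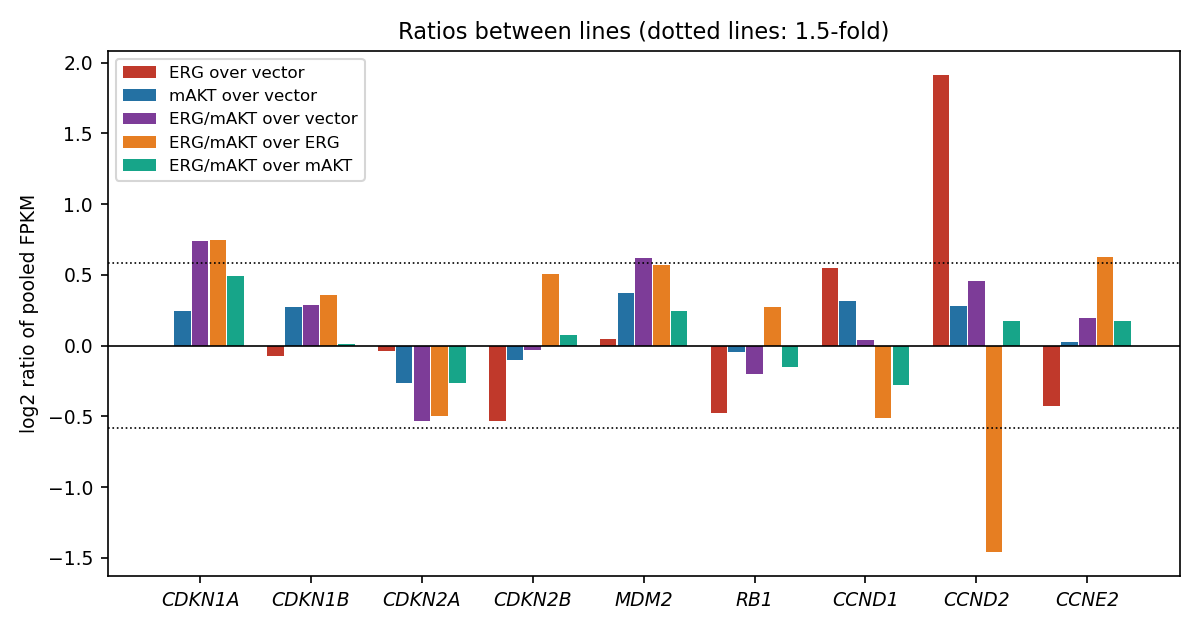
Log2 ratios of pooled FPKM for the 9 genes in 5 comparisons of lines, with dotted lines at 1.5-fold. CCND2 is past the limit in ERG over vector (1.92) and, downward, in ERG/mAKT over ERG (−1.46), and CDKN1A and MDM2 pass it in ERG/mAKT over vector (0.74 and 0.62).

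With ERG alone, 1 of the 9 genes was called higher than in the vector line, CCND2, where 9.41% of 12481 genes were, and 0 were called lower, where 5.11% were. With mAKT alone, 0 members were called higher and 0 lower, against backgrounds of 3.02% and 2.86%. CDKN1A and MDM2 were called higher in the ERG/mAKT line than in the vector line, 2 of 9 where 7.08% of genes were, and 0 were called lower, where 5.12% were. Relative to the ERG line, the ERG/mAKT line had CDKN1A and CCNE2 called higher, 2 of 9 against 5.81%, and CCND2 called lower, 1 of 9 against 9.40%. Relative to the mAKT line, 0 members were called higher and 0 lower, against 6.02% and 3.42%. These comparisons share lines, so their counts are not independent. The median log2 ratio of the members in the same order of comparisons was −0.04, 0.25, 0.20, 0.36 and 0.07, beside −0.01, 0.02, −0.07, −0.05 and −0.08 over all expressed genes.

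The table allows the ratio for ERG to be taken without mAKT (ERG over vector) and with it (ERG/mAKT over mAKT), from lines that the 2 ratios do not share. For CCND2 the log2 ratio was 1.92 without mAKT and 0.17 with it, a difference of −1.74, and 0.707% of 12455 genes had a difference as low or lower. For CCND1 the ratio was 0.55 without mAKT and −0.28 with it, a difference of −0.83. For both cyclin D genes the ratio between the 2 lines with mAKT was thus lower than that between the 2 lines without it. AKT1 RNA also differed between the lines with mAKT, at 156 FPKM in the mAKT line and 281 in the ERG/mAKT line. The ratio with mAKT therefore does not separate ERG from the level of AKT1. The difference was positive for CDKN2B (0.61), CCNE2 (0.60), CDKN1A (0.50), RB1 (0.32), MDM2 (0.20) and CDKN1B (0.08), and it was −0.23 for CDKN2A. Over all genes the median difference was −0.08. Without values of single libraries, none of these differences could be tested.

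**Figure D3:**
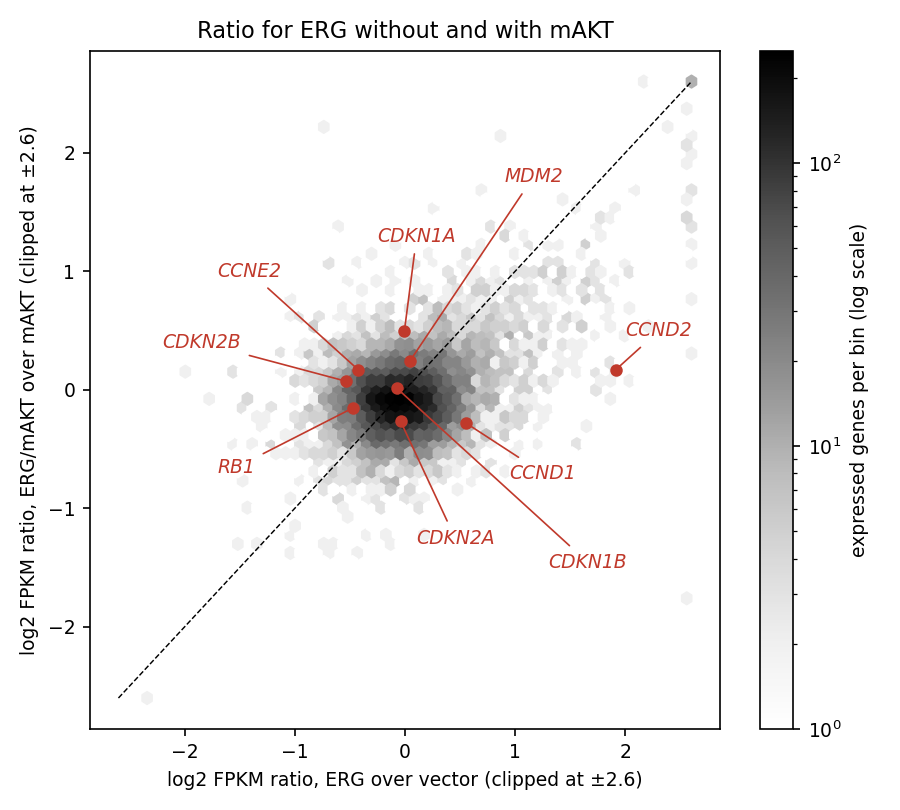
Log2 FPKM ratio of ERG over vector (horizontal) against ERG/mAKT over mAKT (vertical) for expressed genes, as counts per bin on a log scale, with the 9 genes as points and a dashed line of equal ratios. CCND2 lies far below the dashed line (1.92 against 0.17), and the other members lie closer to it.

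The lists of cell cycle and p53 target genes were set beside the share of all expressed genes called. That share was 9.41% higher and 5.11% lower with ERG over vector, and 7.08% and 5.12% with ERG/mAKT over vector. Of 7 INK4 and CIP/KIP inhibitor genes, 1 was called lower with ERG over vector, the low-level gene CDKN1C (0.577 against 1.21 FPKM), and 1 higher with ERG/mAKT over vector, CDKN1A. CDKN2D measured 9.60 FPKM in the vector line and 12.3 in the ERG line. Of 9 G1 cyclins and kinases, CCND2 alone was called higher with ERG, and CDK6 alone was called lower in the ERG/mAKT line, with 9.48 against 14.2 FPKM in the vector line. CDK4, the more abundant of the D-type cyclin kinases by RNA, was 98.6, 100.2, 102 and 85.5 FPKM, and CDK2 was 48.1, 54.5, 51.7 and 41.5 FPKM, in the vector, ERG, mAKT and ERG/mAKT lines.

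Of 13 RB family and E2F genes, 0 were called with ERG over vector, and E2F5, at 0.678 against 1.04 FPKM, was called lower with ERG/mAKT over vector. E2F1 was level at 28.2 to 30.1 FPKM. The list lay to the lower side in the ERG line, with 11 of 13 log2 ratios below 0. Its median was −0.17, beside −0.01 over all expressed genes. Of 30 E2F target genes of G1 and S phase, 0 passed the limit in either comparison. Their median log2 ratio was −0.11 with ERG and −0.12 with ERG/mAKT, beside −0.01 and −0.07 over all expressed genes. Of the 30 ratios, 24 and 19 were below 0. Among all expressed genes, 50.9% were at or below −0.0056 with ERG and 55.6% at or below −0.032 with ERG/mAKT. The counts below 0 were not adjusted for transcript length. CDK1 had the largest ratio of that list with ERG (83.6 FPKM in the vector line and 58.3 in the ERG line), followed by SLBP (33.8 and 24.9 FPKM) and CCNE2. With ERG/mAKT over vector the largest were those of MCM7 (166 against 129 FPKM), CCNE1 and E2F2 (2.18 against 2.72 FPKM).

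Of 30 p53 target genes, 28 were expressed. With ERG/mAKT over vector, 4 of 28 were called higher, beside 7.08% of all expressed genes, and without the members CDKN1A and MDM2, 2 of 26. The 4 were CDKN1A, MDM2, TP53INP1 (1.24 against 0.811 FPKM) and GDF15, a secreted stress-response factor. GDF15 measured 4.73 FPKM in the vector line, 10.9 in the ERG line, 6.56 in the mAKT line and 22.9 in the ERG/mAKT line. With ERG over vector, 2 of 28 were called higher, beside 9.41% of all expressed genes. These were GDF15 and GADD45A, a growth-arrest gene, which measured 50.5 FPKM in the vector line and 86.0 in the ERG line. The remaining expressed targets did not pass the limit, and the list's median log2 ratio was 0.02 with ERG and 0.05 with ERG/mAKT. TP53I3 (10.4 and 15.6 FPKM in the vector and ERG lines) was just short of the limit.

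The RNA of short transcripts was higher in the ERG-expressing lines, a feature that touches the FPKM ratios to differing degrees. Above 300 bases, class medians ran from 0.23 to −0.12 with ERG over vector. With ERG/mAKT over mAKT they lay between −0.08 and −0.10. The median log2 ratio with ERG over vector was 1.16 for 240 genes whose longest GENCODE transcript is at most 300 bases, 0.03 for 2117 genes in the length class of CDKN1A and −0.12 for 2362 genes in the class of longest transcripts, which holds CCND2 and MDM2. CCND2, whose longest transcript has 6849 bases, was at 2.04 relative to genes of its own length class, further from 0 than its ratio as deposited. CCND1 was at 0.62 relative to its class and so past the limit, and the lower ratios of CDKN2B, RB1 and CCNE2 in the ERG line became −0.50, −0.40 and −0.39. For ERG/mAKT over mAKT, CDKN1A was at 0.59 relative to its class and so just past the limit. Most of that move was not particular to length, as the class median was −0.10 beside −0.08 over all expressed genes. Centring on the latter gave 0.57. The origin of the length trend was not tested.

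The members lie on 6 chromosomes. In GRCh37, besides CDKN2A, CDKN1A spans chr6:36644237-36655114, MDM2 chr12:69201957-69239324, CDKN1B chr12:12838432-12875303 and CCND2 chr12:4378937-4414519, all on the plus strand. RB1 spans chr13:48877880-49173572 and CCND1 chr11:69455924-69469242 on the plus strand, and CDKN2B chr9:22002902-22009304 and CCNE2 chr8:95891998-95908906 on the minus strand. Each overlaps at least 1 annotated gene on the opposite strand, such as GPR19 at CDKN1B and CCND2-AS1 at CCND2, whose reads may not be separable.

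Listed ERG peaks of the ERG/mAKT line were about as frequent within 20 kb of the members as near other genes. In the ERG/mAKT line the ERG list of 9113 peaks, called at a p-value limit of 0.001, had a peak within 1 kb of a start for 0 of 9 members, where 1.94% of 19785 protein-coding genes had one, and within 20 kb of the gene for 3 of 9, CDKN1A, CDKN1B and RB1, where 29.2% had one. The VCaP list of 6143 peaks had 0 of 9 near a start and 0 of 9 within 20 kb, where 4.05% and 20.2% of genes had one. CCND2, the member with the largest RNA difference with ERG, thus had no listed ERG peak within 20 kb in either list, and an ERG list from the ERG line without mAKT was not analysed here.

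The peak at CDKN1A lay at chr6:36650262-36650568 (GRCh37), 3.76 kb past the nearest annotated start, with a 4.11-fold enrichment. It covered intron and an alternative 5′ exon of CDKN1A, and ATAC peaks covered it in the ERG, mAKT and ERG/mAKT lists, with enrichments of 6.58-fold, 5.59-fold and 5.88-fold. In the vector line an ERK2 peak overlapped it at chr6:36650125-36650356. The peak near CDKN1B, at chr12:12836853-12836961 with a 4.24-fold enrichment, lay before that gene in an intron of GPR19, 33.3 kb from the nearest CDKN1B start. The third, at chr13:49179988-49180096, lay past the end of RB1 with a 2.82-fold enrichment. None of the 3 had a q-value of at most 0.01, as only 450 of the 9113 peaks did. The 201 bases around the summits of the CDKN1A and CDKN1B peaks (GRCh37, plus strand) are shown because they are the strongest ERG sites near a member, with the ETS core GGAA on either strand in capitals.
CDKN1A, chr6:36650214-36650414: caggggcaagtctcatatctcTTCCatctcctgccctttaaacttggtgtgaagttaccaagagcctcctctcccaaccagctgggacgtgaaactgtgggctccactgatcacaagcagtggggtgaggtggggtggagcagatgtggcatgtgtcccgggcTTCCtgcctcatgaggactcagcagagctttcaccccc
CDKN1B, chr12:12836845-12837045: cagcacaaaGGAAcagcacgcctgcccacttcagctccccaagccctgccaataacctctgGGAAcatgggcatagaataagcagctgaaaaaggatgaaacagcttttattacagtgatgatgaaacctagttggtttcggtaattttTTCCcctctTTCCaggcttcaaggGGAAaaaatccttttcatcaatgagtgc

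The CDKN1A window held the core 2 times and the CDKN1B window 5 times. The core is common, and 87.5% of the 9113 ERG windows of this length held at least 1. Neither window held the longer ETS word CCGGAAGT, present in 0.549% of the ERG windows, or an AP-1 word, present in 8.45%.

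**Figure D4:**
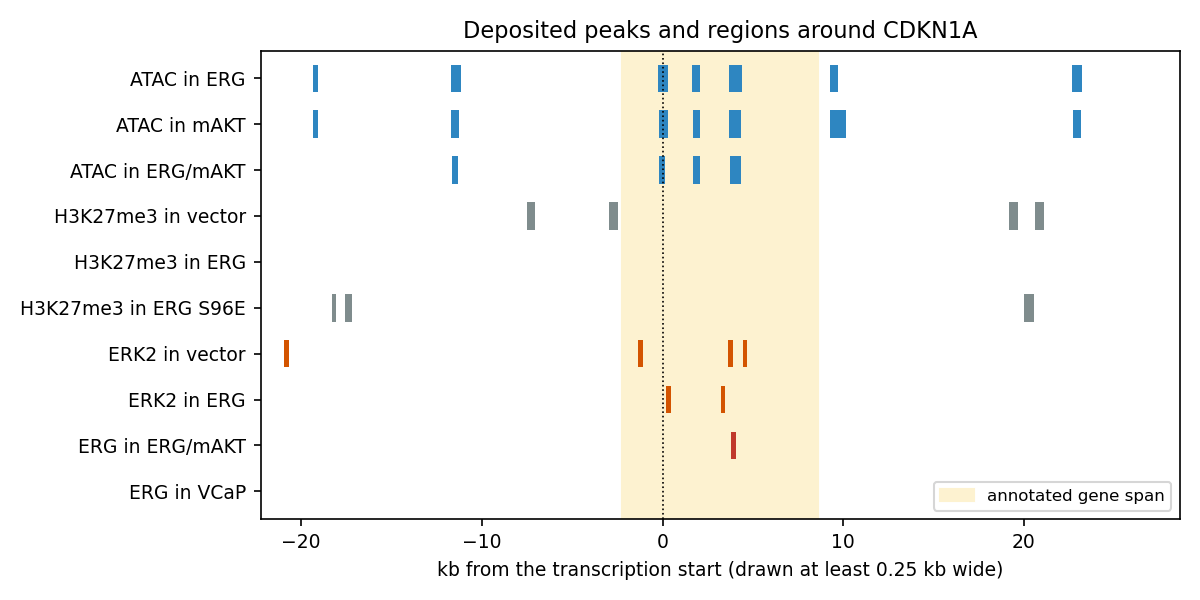
Peaks and regions of the 10 lists within 20 kb of CDKN1A, by distance in kb from a transcription start, with the annotated gene span shaded. The ERG peak of the ERG/mAKT line lies about 3.76 kb past the start, under an ATAC peak present in all 3 ATAC lists.

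ERK2 peaks, called at a p-value limit of 0.01, differed between the vector list (41276 peaks from 8393459 tags) and the ERG list (5721 peaks from 15020233 tags). Near a start, 3 of 9 members had a peak in the vector list (CDKN1A, CDKN2B and MDM2, where 11.4% of genes did) and 2 of 9 in the ERG list (CDKN1A and CCND2, where 6.42% did). Within 20 kb the counts were 7 of 9 in the vector list and 3 of 9 in the ERG list, against 68.5% and 23.8% of genes. CCND2 was the 1 member with a start peak in the ERG list and none in the vector list, a pattern that 3.91% of genes had.

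At CCND2 (chromosome 12, 4378937 to 4414519, plus strand) the ERG list held 3 ERK2 peaks around the start. They lay at chr12:4380533-4380763, chr12:4381664-4382074 and chr12:4382872-4383056, the last over the start, with enrichments of 3.31-fold, 3.70-fold and 3.70-fold. The vector list held 1 peak within 20 kb, past the end of the gene at chr12:4420399-4420599 and 3.69-fold enriched. None of these 4 peaks had a q-value of at most 0.01. The 1 ERK2 peak near a member that did was next to CDKN1B, just past its end at chr12:12875931-12876270 in the ERG list, with a 6.41-fold enrichment and a −log10 q of 3.64.

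H3K27me3 regions, whose lists extend to a p-value of 0.1, were weak, with median enrichments of 1.84-fold, 1.94-fold and 2.01-fold in the vector, ERG and ERG S96E lists. They covered 242, 138 and 224 Mb of the genome. All 9 members had a region within 20 kb in the vector list, 4 of 9 in the ERG list and 6 of 9 in the S96E list, against 96.7%, 70.7% and 76.0% of genes. Near a start the counts were 2 of 9 (CDKN1A and RB1), 0 of 9 and 0 of 9, against 30.8%, 20.2% and 27.7%. CDKN1A, CDKN2B, CCND1, CCND2 and CCNE2, 5 of 9, had a region in the vector list and none in the ERG list, as did 26.3% of genes. Adjacent members share part of their windows, as CDKN2A and CDKN2B do.

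CCND2 had the largest share of its window covered in the vector list. In the vector list 15 regions covered 9.67% of the 75.6 kb around it, with 1.61-fold to 2.11-fold enrichment, and 9 of them lay before the annotated gene. In the ERG list 0 regions lay there, and in the S96E list 1 region covered 0.275%. No region at CCND2 had a q-value of at most 0.01, and the ERG list is shorter, with 228233 regions against 492265 in the vector list. CDKN1A, CDKN2B, CCND1 and CCNE2 also had no region in the ERG list, and their RNA was not called higher with ERG. A link between H3K27me3 and CCND2 RNA was not tested, and RNA of the S96E line was not analysed here. RB1, a gene with a long span, had 41, 14 and 15 regions over 6.15%, 1.78% and 2.34% of its window in the vector, ERG and S96E lists, and CDKN1B had 11, 9 and 10.

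**Figure D5:**
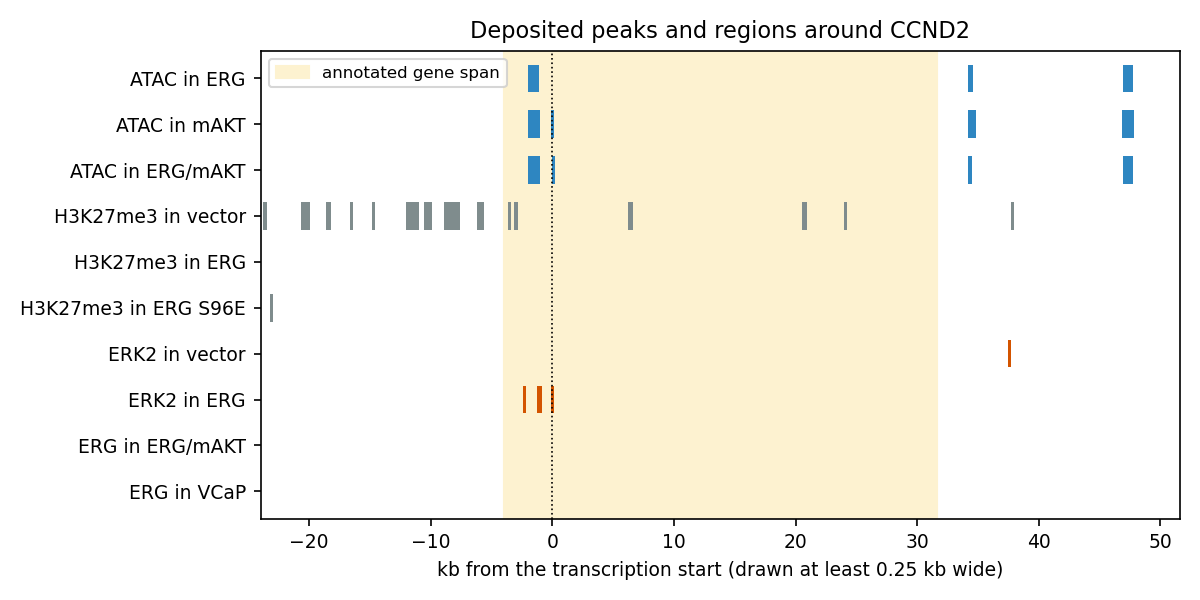
Peaks and regions of the 10 lists within 20 kb of CCND2, by distance in kb from its transcription start, with the annotated gene span shaded. The 15 H3K27me3 regions of the vector list have no counterpart in the ERG list, and the 3 ERK2 peaks of the ERG list lie around the start.

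Open chromatin at the starts of the members was nearly constant. An ATAC peak lay within 1 kb of a start for 8 of 9 members in the ERG list, 9 of 9 in the mAKT list and 8 of 9 in the ERG/mAKT list, against 69.4%, 68.1% and 63.7% of genes. The exceptions were cyclin D genes. At CCND2 the ERG list had no peak over the start, its nearest being 1079 bp before it (5.63-fold), whereas peaks over the start stood in the mAKT list (2.75-fold) and the ERG/mAKT list (2.49-fold). The peak before the start was listed with mAKT (4.68-fold) and with ERG/mAKT (4.60-fold) too, at 1046 and 994 bp. A peak within 1 kb of a start in the mAKT and ERG/mAKT lists and not in the ERG list was found for 0.414% of genes. At CCND1 the start peak was listed with ERG (4.40-fold) and with mAKT (2.91-fold) and not with ERG/mAKT, as for 3.75% of genes. The ERG/mAKT list is the shortest of the 3, with 42081 peaks against 63354 and 57999, and an ATAC list of the vector line was not analysed here.

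Genes with the pattern nearest to that of a member over the 4 lines were found by Euclidean distance between centred log2(FPKM + 1) values among 9313 genes of at least 5 FPKM in any line. For CCND2 these were SNORA71C (distance 0.17) and C1QL1 (0.23), and only 5 genes lay within 0.3. For CDKN1A they were HSD11B2 (0.09) and P3H3 (0.10), with 105 genes within 0.3. For MDM2 they were SCNN1A and NOP2, with 337 genes within 0.3, and for CCNE2 ESRRA and SRXN1, with 1270. These counts depend on the size of the differences, since the log2 range over the lines was 1.88 for CCND2 and 0.55 for CCNE2. Neither the distances nor the counts were adjusted for the trend with transcript length. Among the members themselves the closest pairs were CDKN2B with CCNE2 (0.15), CDKN2B with RB1 (0.17) and CDKN1A with MDM2 (0.19).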

How the data were processed

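RNA-seq expression was taken from the deposited Cuffdiff table, whose FPKM values the authors made from TopHat2 alignments to hg19, pooling 3 libraries per line. The same table holds the authors' log2 ratios, test statistics, p-values and q-values for pairs of lines, which were not used. Peak lists are the authors' deposited MACS2 output (version 2.1.2 for ERG and ERK2 in RWPE1, 2.2.7.1 for H3K27me3 and mAKT ATAC, per the file headers). The deposited values are a pileup signal, a fold enrichment over the control or background, −log10 p-values and −log10 q-values, which the authors obtained with MACS2 after Bowtie2 alignment to hg19 and removal of duplicates. For ChIP-seq, blacklisted regions were removed with bedtools. ChIP DNA was pooled from several experiments before sequencing. Treatment libraries held 8393459 to 35688481 tags or fragments where a header states it.

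Log2 ratios of FPKM were computed without a pseudocount. Names on 2 rows (2 genes) were left out. Peaks were overlapped by at least 1 bp with windows of 1 kb around starts of protein-coding GENCODE transcripts (v44lift37) and of 20 kb around genes, and 0 peaks ran past a GRCh37 chromosome end. Python 3.11.15, pandas 2.3.3 and NumPy 2.4.6 were used, and the code was tested on simulated data. Motifs were searched in the 250 bases before RefSeq starts and within 100 bases of ERG summits.

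The members and lists were chosen with earlier results of these data known. Named genes are the members, the transgenes, partners set by name, per list the 3 largest ratios of ERG and of ERG/mAKT over vector, and the 2 nearest patterns for 4 members. Other genes (TP53INP1, TP63, KRT18, KLF4, BCL2L11, SESN3 and the markers near 0) were named after their values were seen. Alternatives were other pseudocounts, filters, centrings, folds, peak limits and windows, and, chosen after seeing the data, centring within classes of transcript length. Lists attached to 2 VCaP samples carry headers or names that go against their labels and were not used. Protein sequences were not used here, and 1 gene list and 1 partner gene are not reported here.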

Additional observations from a re-analysis of the deposited data

Results flagged for a closer look

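For 2 members the ratio for ERG had opposite signs without and with mAKT, each by at least 0.1 on the log2 scale. CCND1 had a log2 ratio of 0.55 for ERG over vector and −0.28 for ERG/mAKT over mAKT, a difference of −0.83 (with minus without mAKT). CCNE2 had ratios of −0.43 and 0.17, a difference of 0.60. Each line has 1 pooled value, so these differences were not tested, and AKT1 RNA also differed between the mAKT and ERG/mAKT lines. Differences as low as that of CCND1 were found for 5.08% of 12455 genes, and as high as that of CCNE2 for 5.74%.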

How the results depend on the processing

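No paired analysis was possible because each line has 1 value pooled over its libraries, and for the same reason no replicate could be left out. Of 270 member ratios under an alternative, 265 moved by under 0.1 (log2), the largest move was 0.13, and 4 took the other sign, none of them a called ratio. Counts of members called moved by 1.5 times or more as follows. With a pseudocount of 1, those higher in the ERG/mAKT line fell to 1 against vector, without MDM2 (log2 0.57), and to 1 against ERG, without CCNE2 (0.55), and a limit of 2-fold left 0 and 0. Centring on the median of expressed genes added MDM2 (0.63) to those higher against ERG, giving 3. Centring within transcript length gave 2 higher with ERG over vector and 1 higher with ERG/mAKT over mAKT.

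Counts of the lists reported here moved by over 1.5 times as follows, and 4 more moved by 1 gene. At 2-fold, ERG/mAKT over vector left 0 inhibitors, 0 cyclins and kinases, 0 RB and E2F genes, 1 p53 target and 2 FOXO targets, and ERG over vector left 1 p53 target and 4 FOXO targets. Centring on the median changed the inhibitors to 2 and the cyclins and kinases, and the RB and E2F genes, to 0 with ERG/mAKT over vector. At 5 FPKM or more, 0 inhibitors and 5 FOXO targets were called with ERG and 0 RB and E2F genes with ERG/mAKT.

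Peaks rested on weak calls. At a q-value of at most 0.01, members with a peak at a start fell to 0 for ERK2 in both lines and H3K27me3 in vector, and within 20 kb to 0 for ERG in ERG/mAKT, ERK2 in vector and all 3 H3K27me3 lists and to 1 for ERK2 in ERG. Within 5 kb of a start the counts were 1 for ERG in ERG/mAKT, 6 for ERK2 in vector, 4, 1 and 1 for H3K27me3 in vector, ERG and S96E. At 2-fold enrichment H3K27me3 in vector had 0 at a start and 5 within 20 kb. Each list is 1 library, and the ERK2 lists differ in depth.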

Other observations

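AKT signalling is known to keep FOXO factors out of the nucleus. The list of FOXO target genes included CCND1, CCND2 and CDKN1B and does not separate activated from repressed targets. Its genes went in both directions. Of 20 genes, 19 were expressed. With ERG over vector 3 were called higher and 6 lower, beside 9.41% and 5.11% of all expressed genes. With mAKT over vector 2 were called higher and 0 lower, beside 3.02% and 2.86%, and with ERG/mAKT over vector 3 higher and 1 lower, beside 7.08% and 5.12%. These shares describe the list and no test was made on it. TNFSF10, the death ligand TRAIL, measured 1.04 FPKM in the vector line, 1.21 in the ERG line, 1.96 in the mAKT line and 6.96 in the ERG/mAKT line. BCL6, a transcriptional repressor, measured 4.76, 1.68, 3.20 and 4.21 FPKM in the same order, and BCL2L11, the pro-apoptotic gene of BIM, 4.14, 2.08, 4.25 and 5.78 FPKM. BCL6 and BCL2L11 were thus lowest in the ERG line, where CCND2 was highest. FBXO32 and SESN3 were low throughout, at 0.324 to 1.08 and 0.714 to 1.70 FPKM. KLF4 was 6.81 FPKM in the vector line, 3.90 in the ERG line, 6.95 in the mAKT line and 12.7 in the ERG/mAKT line, and IRS2 was 11.6, 7.40, 8.56 and 6.15 FPKM.

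Of 6 genes at the CDKN2A and CDKN2B locus, the low-level genes IFNE (0.633 and 1.13 FPKM in the vector and ERG lines) and DMRTA1 (0.722 and 1.13 FPKM in the vector and ERG/mAKT lines) were the ones called against the vector line with ERG and with ERG/mAKT. Each was called higher, as were 9.41% of all expressed genes with ERG and 7.08% with ERG/mAKT.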
